A study of Mus musculus with 60 samples.

Results

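The genes described here are 40 mouse genes of the cell cycle and DNA replication, taken from a given list of S phase and mitosis genes by their symbols and all found in each of the 5 deposited expression tables, which together hold 22893 genes. They fall into 3 roles. The 14 replication genes are the helicase subunits Mcm2, Mcm3, Mcm4, Mcm5, Mcm6 and Mcm7, Gins1, Gins2, Cdc6, Cdc45, Pcna, Rrm1, Rrm2 and Tyms. The 4 regulators of the G1/S step are Ccne1, Ccne2, E2f1 and Cdt1. The 22 mitotic genes are Birc5, Ccna2, Ccnb1, Ccnb2, Cdk1, Mki67, Top2a, Aurka, Aurkb, Bub1, Bub1b, Plk1, Cdc20, Cenpa, Cenpe, Cenpf, Kif11, Kif20a, Kif23, Tpx2, Nusap1 and Prc1.

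RNA was sequenced in 60 libraries of the mouse from a study of heme synthesis in brown fat. In the first experiment B9 cells, an immortalized line of brown preadipocytes, and primary preadipocytes of brown fat (pBAT) and white fat (pWAT) from newborn pups were taken at days 0, 2, 4 and 6 of differentiation, with 3 libraries a group. In the second, pBAT cells were differentiated with SA (succinylacetone, an inhibitor of heme synthesis) at 1 mM, with HA (heme-arginate, a source of heme) at 10 µM, with both (HASA) or with Vehicle, with 4 libraries a group. All cultured cells are labelled wild type. In the third, brown fat came from female BAKO mice, which lack Alas1 in brown adipocytes, and from WT mice, with 4 animals a group. The labels used here give neither the Cre driver nor the age of these mice. The B9 line is 1 line, and no label says that the libraries of a cell culture group came from separate cultures, so p-values there measure the spread between libraries, which may be technical. All values are on the log2 scale as deposited. The authors normalized the cell types and the experiments in separate tables, so levels were compared within a table and no test was made between cell types. Comparisons between days share the libraries of a day, and comparisons between treatments share the libraries of a treatment. A gene was called changed at an adjusted p under 0.05 in limma, with Benjamini-Hochberg adjustment over all genes tested in the table.

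A dividing cell loads the Mcm helicase onto origins with Cdc6 and Cdt1 in G1, and cyclin E, E2F and Cdc45 with the GINS complex then start replication in S phase, when Rrm1, Rrm2 and Tyms supply nucleotides and Pcna clamps the polymerase to DNA. Cyclin A, cyclin B, Cdk1, Plk1, the Aurora kinases, kinetochore proteins and kinesins carry the cell through G2 and mitosis. Cultured preadipocytes given a differentiation cocktail can go through a burst of divisions, called mitotic clonal expansion, before they leave the cycle and fill with lipid. The samples are bulk RNA, so fewer dividing cells and less of these mRNAs per dividing cell cannot be told apart.

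The promoters shown are those of genes with the largest falls over differentiation in pBAT cells, since the mitotic and replication genes differ in the motifs they hold. They are printed from 200 bases before the start of the gene up to the start, on the gene's own strand, from RefSeq on GRCm38.p6. Capitals mark matches to 3 kinds of motif on either strand. The E2F motif was searched as TTTCCCGC, TTTGGCGC, TTTCGCGC, TTTGCCGC or TTCCCGCC, the cell cycle homology region (CHR), a motif known from genes of G2 and mitosis, as TTTGAA, and the CCAAT box as CCAAT. E2F matches can share letters with each other. Plk1 lies at chr7:122159235-122159434 (+), Cdc20 at chr4:118437344-118437543 (-) and Kif23 at chr9:61946800-61946999 (-), and these are the mitotic genes with the largest falls that have a promoter in the table. Rrm2 at chr12:24708054-24708253 (+), Mcm5 at chr8:75109309-75109508 (+) and Tyms at chr5:30073626-30073825 (-) are the replication genes chosen in the same way. Cdk1 at chr10:69352913-69353112 (-) and Mcm6 at chr1:128359706-128359905 (-) were added after their matches were seen, because their printed runs hold several matches.
Plk1: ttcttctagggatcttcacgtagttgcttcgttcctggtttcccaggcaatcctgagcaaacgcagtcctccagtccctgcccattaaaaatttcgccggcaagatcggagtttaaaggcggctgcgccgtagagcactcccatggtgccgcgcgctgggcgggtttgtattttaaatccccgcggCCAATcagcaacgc
Cdc20: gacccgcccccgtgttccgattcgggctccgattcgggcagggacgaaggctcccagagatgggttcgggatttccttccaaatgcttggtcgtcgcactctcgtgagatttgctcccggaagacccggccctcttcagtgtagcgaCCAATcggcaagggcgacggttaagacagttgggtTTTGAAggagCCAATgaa
Kif23: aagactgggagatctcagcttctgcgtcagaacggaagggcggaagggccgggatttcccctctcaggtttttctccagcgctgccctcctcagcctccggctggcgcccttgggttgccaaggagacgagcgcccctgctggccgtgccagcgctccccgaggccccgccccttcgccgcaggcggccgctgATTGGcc
Cdk1: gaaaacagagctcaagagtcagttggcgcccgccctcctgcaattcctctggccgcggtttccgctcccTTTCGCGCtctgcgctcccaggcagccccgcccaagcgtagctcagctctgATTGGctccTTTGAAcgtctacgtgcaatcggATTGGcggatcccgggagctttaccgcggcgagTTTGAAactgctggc
Rrm2: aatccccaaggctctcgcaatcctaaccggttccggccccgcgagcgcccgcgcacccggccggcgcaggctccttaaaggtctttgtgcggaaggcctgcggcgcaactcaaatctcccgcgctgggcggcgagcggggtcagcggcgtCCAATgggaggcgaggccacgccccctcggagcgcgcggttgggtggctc
Mcm5: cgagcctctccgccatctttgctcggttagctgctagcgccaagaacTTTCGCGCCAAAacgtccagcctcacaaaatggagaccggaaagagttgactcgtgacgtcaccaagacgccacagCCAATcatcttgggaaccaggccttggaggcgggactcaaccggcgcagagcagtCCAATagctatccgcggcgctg
Tyms: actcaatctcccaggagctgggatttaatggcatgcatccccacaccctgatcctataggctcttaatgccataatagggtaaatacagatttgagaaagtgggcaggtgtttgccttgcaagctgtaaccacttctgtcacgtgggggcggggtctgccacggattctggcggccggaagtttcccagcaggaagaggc
Mcm6: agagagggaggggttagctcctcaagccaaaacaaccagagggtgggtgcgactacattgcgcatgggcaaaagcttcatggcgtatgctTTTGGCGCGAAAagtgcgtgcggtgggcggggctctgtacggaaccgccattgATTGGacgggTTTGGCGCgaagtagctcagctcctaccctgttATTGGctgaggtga

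In the run of Cdk1 2 CHR matches each follow a CCAAT match, and it also holds an E2F match, the only one among the mitotic promoters. Mcm5 and Mcm6 hold E2F matches, including a pair that share letters, and no CHR match. The printed runs of Plk1, Kif23 and Rrm2, chosen by the size of their falls, hold a CCAAT match but neither a CHR nor an E2F match. Tyms holds no match in its printed run. Over windows from 250 bases before to 50 bases after the start, 32 of the 40 genes had a promoter. A CHR match was found in 13 of 18 mitotic promoters and 2 of 11 replication promoters, against 17.9% of all 32851 promoters. An E2F match was found in 1 of 18 mitotic promoters and 6 of 11 replication promoters (54.5%), against 3.89% of all promoters. A CCAAT match was found in 16 of 18 mitotic and 9 of 11 replication promoters, against 37.4% of all promoters. Of the 3 promoters of G1/S regulators 1 held an E2F match and none held a CHR or CCAAT match. A match is a run of letters and not a measured binding site.

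Day 2 of differentiation separated the roles and the cell types. In pBAT cells 12 of 14 replication genes and 3 of 4 G1/S regulators were higher on day 2 than on day 0 and none was lower, while 7 of 22 mitotic genes were higher and 4 lower. In pWAT cells all 22 mitotic genes were lower on day 2, 7 of 14 replication genes were lower, and Ccne1 alone was higher. In B9 cells 9 replication genes were lower and 3 higher, and 18 mitotic genes were lower and 2 higher. Of all tested genes 36.7% were called higher and 29.7% lower in pBAT cells. These shares were 27.1% and 25.5% in pWAT cells and 35.1% and 34% in B9 cells. The mitotic counts in pBAT cells are not above the shares over all tested genes.

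**Figure D1:**
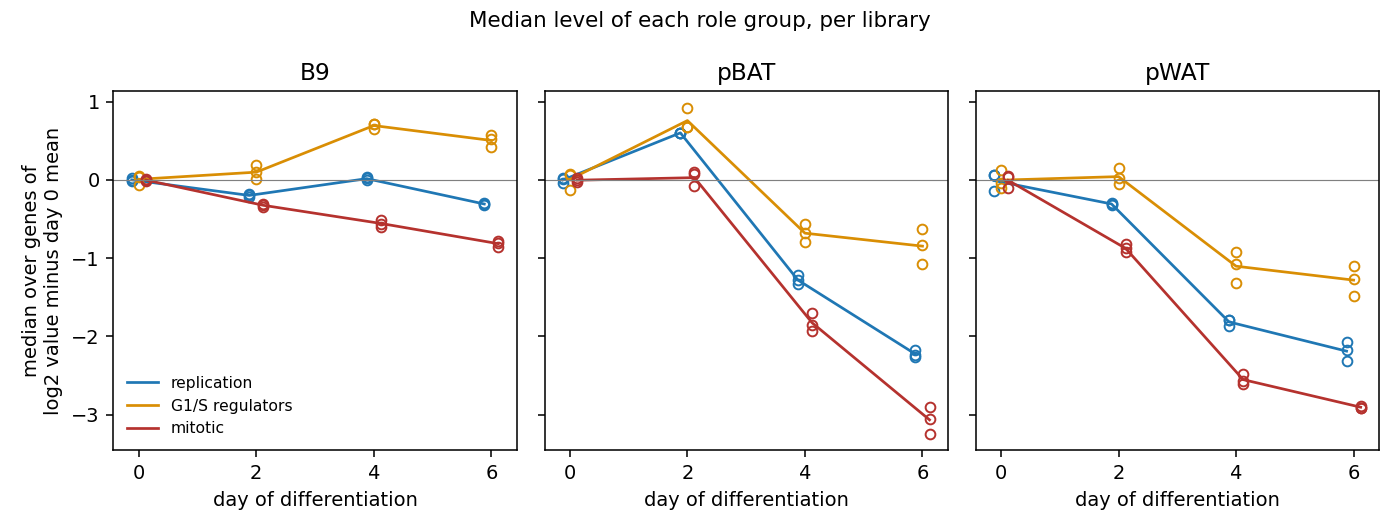
Median difference from the day 0 mean (log2) over the genes of each role, with 1 point per library, at days 0, 2, 4 and 6 in B9, pBAT and pWAT cells. On day 2 the replication medians lie at 0.599 to 0.604 in pBAT libraries and at -0.325 to -0.291 in pWAT libraries, above the mitotic medians of the same libraries in each case.

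In pBAT cells 22 of the 40 genes were called higher on day 2 than on day 0, where 36.7% of all tested genes were, and 4 were called lower, where 29.7% of all tested genes were. The median change was 0.34 over the 40 genes and 0.07 over all tested genes. It was 0.61 for the replication genes, 0.76 for the G1/S regulators and 0.02 for the mitotic genes. Pcna, the sliding clamp of the replicative polymerases, had 11.28, 11.37 and 11.52 in the day 2 libraries, against 10.41, 10.44 and 10.37 in the day 0 libraries. Every day 2 library was above every day 0 library, and the level was 1.98-fold higher (log2 change 0.99, SE 0.076, adjusted p = 2.31e-08). Rrm2, the small subunit of ribonucleotide reductase, had 11.52, 11.62 and 11.62 on day 2, against 10.63, 10.74 and 10.68 on day 0, a 1.86-fold higher level (adjusted p = 3.3e-08). Mcm5 had 10.66, 10.65 and 10.58 on day 2, against 10.10, 9.96 and 9.85 on day 0, which was 1.58-fold higher (adjusted p = 1.4e-05). For Rrm2 and Mcm5, too, the days did not overlap. Mcm2 had 10.91, 10.98 and 10.89 on day 2, against 10.47, 10.39 and 10.37 on day 0 (log2 change 0.52). Cdc6, which loads the helicase, had 8.65, 8.69 and 8.45 on day 2, against 8.01, 7.90 and 7.73 on day 0 (0.72), and the day 2 libraries of both genes were the higher ones. The largest rise of a replication gene was that of Cdc45, a part of the active helicase, which had 9.30, 9.20 and 9.31 on day 2, against 8.08, 8.31 and 8.02 on day 0, a 2.19-fold higher level (log2 change 1.13, SE 0.12, adjusted p = 5.52e-07). Gins2 and Rrm1 were the replication genes that did not pass the test, with changes of -0.15 and 0.06. Tyms passed it with 0.34 (adjusted p = 0.0222), and it fell short without day 0 replicate 2 (0.34), without day 0 replicate 3 (0.33) and without day 2 replicate 4 (0.22).

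Ccne1, the cyclin that drives the G1/S step, showed the largest rise of all 40 genes in pBAT cells. It had 10.51, 10.52 and 10.41 on day 2, against 9.22, 9.31 and 9.16 on day 0, a 2.38-fold higher level (log2 change 1.25, SE 0.11, adjusted p = 1.51e-07). Ccne2 had 9.23, 8.89 and 8.86 on day 2, against 8.26, 8.31 and 7.79 on day 0 (0.87). Cdt1, the licensing partner of Cdc6, had 9.59, 9.45 and 9.47 on day 2, against 8.89, 8.83 and 8.86 on day 0 (0.65). In these 3 genes the days did not overlap. E2f1 had 9.65, 9.62 and 9.63 on day 2, against 9.57, 9.48 and 9.26 on day 0; this difference of 0.20 did not pass the test.

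The mitotic genes of pBAT cells were called in both directions on day 2, each way at a smaller share than all tested genes. Of all tested genes 36.7% were called higher and 29.7% lower. The mitotic genes called higher were Top2a, Bub1b, Birc5, Ccnb1, Cdk1, Aurkb and Nusap1, and those called lower were Cenpa, Kif23, Tpx2 and Prc1. Top2a, the topoisomerase that untangles replicated DNA, had 11.94 to 12.05 on day 2, against 11.52, 11.45 and 11.44 on day 0 (log2 change 0.53, SE 0.097, adjusted p = 0.000203). Ccnb1, cyclin B1, had 10.48, 10.55 and 10.54 on day 2, against 9.96, 10.08 and 10.10 on day 0 (0.48). Cdk1, its kinase, had 10.46, 10.55 and 10.63 on day 2, against 10.28, 10.26 and 10.27 on day 0 (0.28, adjusted p = 0.031). All day 2 libraries were above all day 0 libraries for Top2a, Ccnb1 and Cdk1, but the call of Cdk1 was lost without day 0 replicate 2, 3 or 4 or day 2 replicate 3 or 4 (0.24 to 0.28). The calls of Bub1b (0.33) and Cenpa (-0.29) likewise ended without any 1 of 4 libraries, with values of 0.28 to 0.31 for Bub1b without day 0 replicate 2 or 4 or day 2 replicate 3 or 4, and of -0.30 to -0.25 for Cenpa without day 0 replicate 3 or 4 or day 2 replicate 3 or 4. Kif23, a kinesin needed for cytokinesis, had 8.22, 8.75 and 8.46 on day 2, against 9.67, 9.79 and 9.53 on day 0, a 2.28-fold lower level (-1.19, SE 0.19, adjusted p = 5.8e-05). Tpx2, which builds spindle microtubules, had 11.16, 11.07 and 10.98 on day 2, against 11.41, 11.49 and 11.38 on day 0 (-0.36). Both genes fell with no overlap between the days. Mki67, the Ki-67 proliferation marker, had 12.44, 12.40 and 12.17 on day 2, against 12.33, 12.56 and 12.21 on day 0, and the days overlapped (-0.03). Plk1, the Polo kinase of mitotic entry, had 10.79, 10.58 and 10.57 on day 2, against 10.90, 10.81 and 10.81 on day 0; the days did not overlap, but the difference of -0.19 did not pass the test.

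In pWAT cells 1 of the 40 genes was called higher on day 2 than on day 0, where 27.1% of all tested genes were, and 29 were called lower, where 25.5% of all tested genes were. The median change was -0.67 over the 40 genes and 0.02 over all tested genes, and by role it was -0.30 for replication, 0.04 for G1/S and -0.87 for mitosis. Mki67 had 11.86, 11.85 and 11.99 on day 2, against 12.75, 12.70 and 12.72 on day 0, a 1.77-fold lower level (log2 change -0.82, SE 0.072, adjusted p = 2.36e-07). Plk1 had 10.08, 10.09 and 10.26 on day 2, against 11.16, 11.10 and 11.12 on day 0 (-0.99). Every day 2 library was below every day 0 library for these genes, as it was for all 22 mitotic genes. The share of all tested genes without overlap between these days is not given here, so this count has no background beside it. Ccnb1 had 9.64, 9.47 and 9.42 on day 2, against 10.32, 10.25 and 10.53 on day 0 (-0.86). Cdk1 had 9.74, 9.96 and 9.99 on day 2, against 10.66, 10.34 and 10.60 on day 0 (-0.64). Top2a had 11.45, 11.37 and 11.44 on day 2, against 12.14, 11.94 and 12.03 on day 0 (-0.62), and all of these were lower on day 2. The largest falls were those of Kif23, with 8.56, 8.26 and 8.33 on day 2, against 10.21, 10.15 and 9.90 on day 0 (-1.70, 3.24-fold lower), and of the kinetochore protein Cenpf. Cenpf had 9.03, 7.43 and 8.67 on day 2, against 9.89, 9.58 and 9.94 on day 0 (-1.43). Its day 2 replicate 3 lay far below the other libraries, and the change was -0.96 without it.

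The replication genes of pWAT cells moved less. Rrm2 had 10.77, 10.84 and 10.83 on day 2, against 11.14, 10.98 and 11.28 on day 0 (log2 change -0.32, adjusted p = 0.0081), and this call was lost without day 0 replicate 4 (-0.24). Mcm5 had 10.23, 10.25 and 10.14 on day 2, against 10.79, 10.51 and 10.70 on day 0 (-0.46). Cdc6 had 8.23, 8.08 and 8.09 on day 2, against 8.59, 8.49 and 8.76 on day 0 (-0.48), so for these 3 genes day 2 was lower with no overlap. Pcna had 11.16, 11.13 and 11.16 on day 2, against 11.03, 10.79 and 11.02 on day 0 (0.20), and Mcm2 had 10.75, 10.87 and 10.84 on day 2, against 11.02, 10.88 and 11.02 on day 0 (-0.15). Neither passed the test, although the days did not overlap. Ccne1, the one gene that rose, had 10.09, 10.00 and 10.28 on day 2, against 9.46, 9.37 and 9.67 on day 0 (0.62, adjusted p = 0.003). Ccne2 (-0.09), Cdt1 (0.18) and E2f1 (-0.13) did not pass the test. Ccne2 had 8.63, 8.64 and 8.63 on day 2, against 8.90, 8.85 and 8.41 on day 0. Cdt1 had 9.83, 9.43 and 9.59 on day 2, against 9.65, 9.30 and 9.37 on day 0. E2f1 had 9.77, 9.78 and 9.77 on day 2, against 9.97, 9.84 and 9.91 on day 0, the only gene of these 3 whose days did not overlap.

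In B9 cells 7 of the 40 genes were called higher on day 2 than on day 0, where 35.1% of all tested genes were, and 28 were called lower, where 34% of all tested genes were. The median change was -0.22 over the 40 genes and 0.02 over all tested genes. Quantile normalization moved this split to 8 higher and 18 lower. Cdc45 had 10.77, 10.88 and 10.85 on day 2, against 9.97, 10.12 and 10.07 on day 0, a 1.72-fold higher level (log2 change 0.78, SE 0.058, adjusted p = 2.03e-08). Pcna had 12.57 in all 3 libraries on day 2, against 12.01, 12.05 and 12.02 on day 0 (0.54, 1.46-fold higher). Mcm7 was the other replication gene that rose (0.40), and none of the 3 overlapped between days. Mcm5 had 11.93, 11.91 and 11.88 on day 2, against 12.16, 12.23 and 12.16 on day 0 (-0.27). Cdc6 had 9.55, 9.64 and 9.66 on day 2, against 9.94, 9.95 and 9.90 on day 0 (-0.31). For both genes day 2 was lower in every library. Rrm2 had 11.94, 11.97 and 11.88 on day 2, against 12.18, 12.18 and 12.10 on day 0 (-0.22), and Mcm2 had 12.45, 12.47 and 12.50 on day 2, against 12.60, 12.71 and 12.67 on day 0 (-0.18). These calls did not hold under quantile normalization, at -0.05 for Rrm2 and -0.0039 for Mcm2. Ccne1 had 9.91, 9.91 and 9.96 on day 2, against 9.32, 9.43 and 9.51 on day 0 (0.51). Ccne2 had 10.29, 10.38 and 10.67 on day 2, against 10.07, 10.06 and 10.18 on day 0 (0.34). Both cyclins were higher in every day 2 library. E2f1 had 10.75, 10.76 and 10.77 on day 2, against 10.96, 11.17 and 11.06 on day 0 (-0.30), while Cdt1 had 11.08, 11.15 and 11.07 on day 2, against 11.23, 11.33 and 11.15 on day 0 (-0.13) and did not pass the test.

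Among the mitotic genes of B9 cells, Top2a had 13.41, 13.40 and 13.46 on day 2, against 12.92, 12.88 and 12.88 on day 0 (log2 change 0.53), and Bub1b, a kinase of the spindle checkpoint, was the other one that rose (0.40). Mki67 had 13.05, 13.10 and 13.07 on day 2, against 13.55, 13.57 and 13.61 on day 0 (-0.51). Plk1 had 10.92, 10.97 and 10.99 on day 2, against 11.52, 11.79 and 11.69 on day 0 (-0.71). Mki67 and Plk1 were lower in every day 2 library. Ccnb1 had 11.05, 10.98 and 11.08 on day 2, against 11.40, 11.30 and 11.40 on day 0 (-0.33). Cdk1 had 11.52, 11.51 and 11.67 on day 2, against 11.79, 11.81 and 11.83 on day 0 (-0.25), a call that quantile normalization ended (-0.06). Kif23 fell most, with 9.87, 9.84 and 10.00 on day 2, against 10.94, 10.88 and 10.91 on day 0 (-1.01, 2.01-fold lower), before the kinetochore motor Cenpe, with 10.85, 10.89 and 10.80 on day 2, against 11.73, 11.67 and 11.77 on day 0 (-0.87). Neither gene overlapped between the days.

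Put side by side, Ccne1 was called higher on day 2 in all 3 cell types and Kif23, Cenpa, Tpx2 and Prc1 were called lower in all 3, although the B9 call of Tpx2 ended under quantile normalization (-0.02). Cdc45, Pcna and Mcm7 were called higher in B9 and pBAT cells and not called in pWAT cells. Mcm5, Gins1, Cdc6 and Rrm2 were called higher in pBAT cells and lower in B9 and pWAT cells, as were the mitotic genes Birc5, Ccnb1, Cdk1, Aurkb and Nusap1. Top2a and Bub1b were called higher in B9 and pBAT cells and lower in pWAT cells. Another 9 mitotic genes, Mki67 and Plk1 among them, were called lower in B9 and pWAT cells and not called in pBAT cells. The difference between cell types in these changes was not tested. In each of the 9 day 2 libraries the replication median stood above the mitotic median relative to day 0, by 0.109 to 0.138 in B9, 0.507 to 0.678 in pBAT and 0.533 to 0.619 in pWAT cells.

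**Figure D2:**
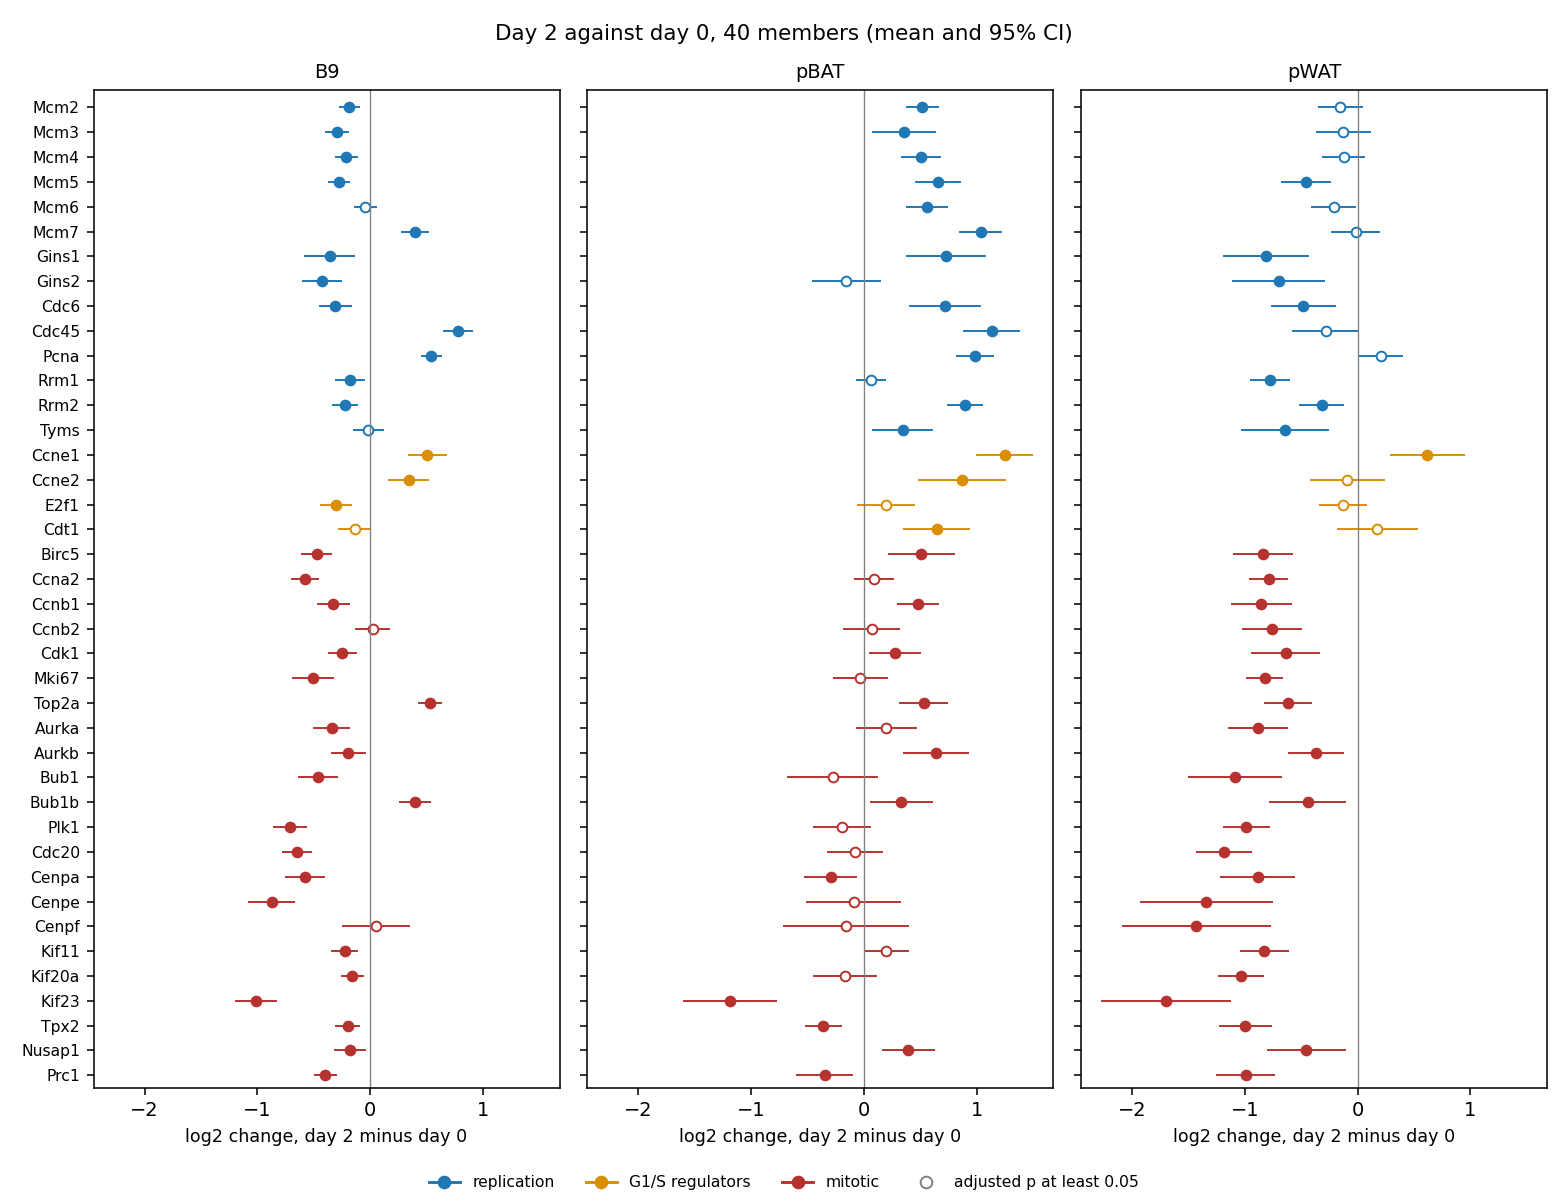
Change on day 2 against day 0 (log2) with 95% confidence interval for each of the 40 genes, ordered by role, in B9, pBAT and pWAT cells. Open points did not pass the test. Replication genes lie mostly right of 0 in pBAT cells, with Cdc45 at 1.13, and every mitotic gene lies left of 0 in pWAT cells.

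Markers of other states moved over the same days. Summed levels, in CPM (counts scaled to a common library total) as recomputed from the log2 values, of 7 adipocyte genes were 7369 to 8220 CPM on day 2, against 436 to 453 CPM on day 0, in pBAT cells, 4872 to 5086 against 219 to 303 CPM in pWAT cells and 2710 to 2920 against 205 to 217 CPM in B9 cells. All 7 passed the test in each cell type. Summed levels of 12 macrophage genes were 556 to 600 CPM on day 2, against 235 to 262 CPM on day 0, in pBAT cells, where 10 of 12 rose, and 597 to 746 against 160 to 174 CPM in pWAT cells, where 11 of 12 rose. In B9 cells 7 macrophage genes were in the table and summed to 7.77 to 8.65 CPM on day 2, against 13.8 to 16.1 CPM on day 0. Smooth muscle and pericyte genes summed to 449 to 514 CPM on day 2, against 9551 to 9969 CPM on day 0, in pBAT cells and 718 to 775 against 9036 to 9889 CPM in pWAT cells, and all 7 fell in both. In B9 cells they summed to 449 to 482 CPM on day 2, against 4322 to 4680 CPM on day 0, with 5 of 6 tested lower and 1 higher. Preadipocyte and fibroblast genes summed to 2881 to 3053 CPM on day 2, against 7516 to 8299 CPM on day 0, in B9 cells. They were 21193 to 23935 against 23200 to 26405 CPM in pBAT cells and 34670 to 36232 against 24522 to 27448 CPM in pWAT cells. Of these 7 genes 2 were called higher and 3 lower in B9 cells. In pBAT cells 5 were called higher and 2 lower (median change 0.85), although the sums overlapped between the days. In pWAT cells 6 were called higher and none lower. The part of these markers in the day 2 result was not tested. The names of the B9 columns of days 2, 4 and 6 carry an R that those of day 0 lack, and what it stands for is not given in the sources used here.

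The other genes of the cycle, 153 in 11 lists by function with 152 tested, were counted in the same way on day 2. These lists were drawn up with earlier results of these data known. In pBAT cells 73 rose and 10 fell (median change 0.25), in pWAT cells 15 rose and 76 fell (-0.34) and in B9 cells 42 rose and 58 fell (-0.10). The shares of all tested genes that rose and fell were 36.7% and 29.7% in pBAT, 27.1% and 25.5% in pWAT, and 35.1% and 34% in B9 cells, and the B9 counts lie near those shares. Of 30 genes of the replication machinery 23 rose and none fell in pBAT cells, none rose and 10 fell in pWAT cells, and 12 rose and 8 fell in B9 cells. Rpa2, a subunit of the protein that coats single-stranded DNA, was 2.12-fold higher on day 2 in pBAT cells, and the flap endonuclease Fen1 was 1.73-fold higher. Nucleotide supply genes rose in 6 of 8 cases in pBAT cells, with Dctpp1 at 2.56-fold and Shmt1 at 3.49-fold, whereas 2 rose and 2 fell in pWAT cells. Kinesin and cytokinesis genes had 2 of 20 higher and 3 lower in pBAT cells, 1 higher and 16 lower in B9 cells, and all 20 lower in pWAT cells. The scaffold Anln was in the lower group in each, at -1.11 in B9, -0.37 in pBAT and -1.32 in pWAT cells. Kinetochore and checkpoint genes had 9 of 22 higher, near the share over all genes, and 1 lower in pBAT cells and 15 lower and none higher in pWAT cells.

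Several regulators of the cycle in these lists changed on day 2 in more than 1 cell type. Myc, a growth-promoting transcription factor, was 2.93-fold higher on day 2 in B9, 4.71-fold higher in pBAT and 3.09-fold higher in pWAT cells, while cyclin D1 (Ccnd1), which couples growth signals to G1, was 12.7-fold, 3.39-fold and 1.99-fold lower in the same order. The CDK inhibitor p57 (Cdkn1c) was 11.2-fold higher in pBAT and 22-fold higher in pWAT cells. The inhibitor p18 (Cdkn2c) was 1.72-fold, 4.52-fold and 1.68-fold higher in B9, pBAT and pWAT cells. Of the 7 CDK inhibitors listed, 4 rose and 0 fell in B9, 2 rose and 2 fell in pBAT, and 4 rose and 1 fell in pWAT cells. Among the 8 D-type cyclins and CDKs, 0 rose and 5 fell in B9, 4 rose and 2 fell in pBAT, and 1 rose and 1 fell in pWAT cells. E2f2, an activator of S phase genes, was 15.3-fold higher in pBAT and 2.08-fold higher in pWAT cells. Foxm1, a transcription factor of mitotic genes, was 1.73-fold lower in B9 cells and 2.16-fold lower in pWAT cells.

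After day 2 the members fell together in both primary cell types. From day 2 to day 4 all 40 fell in pBAT cells, where 31.6% of all tested genes were called lower, and 39 fell in pWAT cells, where 22.8% were; none rose, against 32.2% in pBAT and 25.1% in pWAT cells. The median changes were -1.80 and -1.62, against 0.00 over all tested genes in both. Gins1 was the exception in pWAT cells (-0.18). The largest falls in pBAT cells were those of Cenpe (-2.40) and Rrm2 (-2.36), and in pWAT cells those of Bub1b (-2.04) and Top2a (-1.95). From day 4 to day 6 the pBAT cells had 35 genes lower, against 23.2% of all tested genes, and none higher, against 19.8%, with a median of -1.07. Ccna2 (-1.69) and Ccnb1 (-1.66), the A and B cyclins of G2 and mitosis, fell most. In pWAT cells 19 were lower over that step, against 15.4% of all tested genes, and none higher, against 16.1%, with a median of -0.31. Rrm2 (-0.87) and Plk1 (-0.77) fell most there.

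By day 6 all 40 genes were lower than on day 0 in pBAT cells, where 39.2% of all tested genes were called lower and 38.3% higher, and in pWAT cells, where 35.5% were lower and 35.3% higher. The median change was -2.69 in pBAT and -2.56 in pWAT cells. Mitotic genes fell further than replication genes, with medians of -3.15 and -2.27 in pBAT cells and of -2.92 and -2.20 in pWAT cells, and G1/S regulators fell least, with -0.85 and -1.31. In every day 6 library the replication median stood above the mitotic one, by 0.642 to 1.00 in pBAT and 0.608 to 0.836 in pWAT cells. Over days 0, 2, 4 and 6 the mean level of Mki67 in pBAT cells was 12.37, 12.34, 10.54 and 9.42. Rrm2 had means of 10.68, 11.58, 9.23 and 7.68 over these days. Plk1 had means of 10.84, 10.65, 8.85 and 7.19. Mki67 and Plk1 stayed near their day 0 level until day 2 and Rrm2 peaked there, and all 3 then fell at each step. The largest falls against day 0 were those of the kinesin Kif20a, with 7.60, 7.26 and 7.96 on day 6, against 11.27, 11.35 and 11.23 on day 0 (log2 change -3.68, 12.8-fold lower), and of Plk1, with 7.21, 6.93 and 7.42 against 10.90, 10.81 and 10.81 (-3.65, 12.6-fold lower). The days lay far apart in both. Ccne1 fell by only 0.61 on the log2 scale and Gins1 by 0.67. In pWAT cells Cdc20, the activator of the anaphase ligase, had 7.60, 7.15 and 7.29 on day 6, against 10.99, 10.83 and 10.97 on day 0 (-3.58, 12-fold lower). Plk1 had 7.84, 7.79 and 7.59 on day 6, against 11.16, 11.10 and 11.12 on day 0 (-3.39, 10.5-fold lower). These were the largest falls in pWAT cells, again with no overlap.

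**Figure D3:**
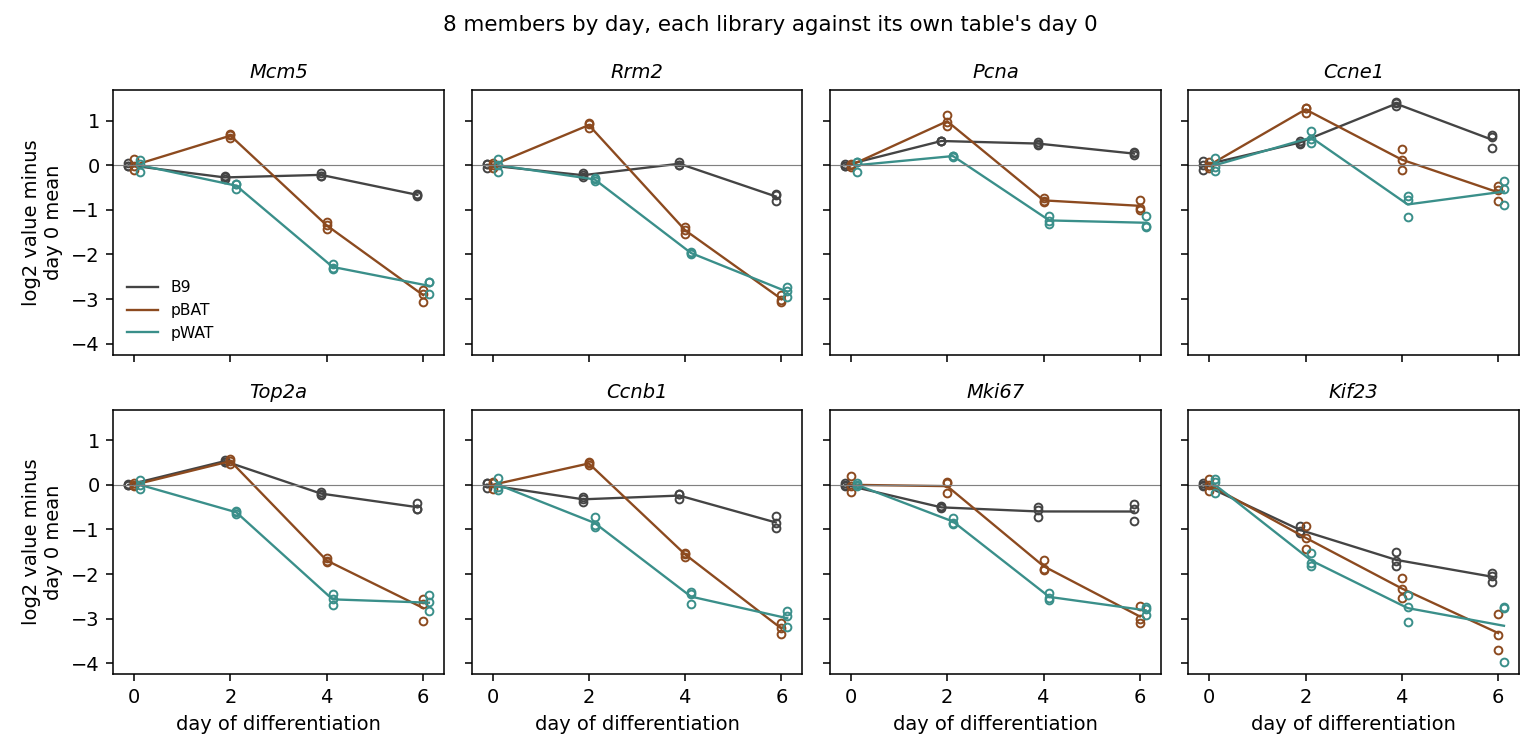
Difference of each library from the day 0 mean of its own table (log2) for 8 genes in B9, pBAT and pWAT cells over days 0, 2, 4 and 6, with lines through the group means. On day 6 the mean of Mki67 lies at -0.60 in B9, -2.95 in pBAT and -2.81 in pWAT cells, and that of Rrm2 in pBAT cells lies at 0.90 on day 2 and -3.00 on day 6.

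The day of the highest mean was counted for each gene, whether or not the days differed by the test. The same count over all tested genes is not given here. In pBAT cells 13 of 14 replication genes and all 4 G1/S regulators were highest on day 2, and the mitotic genes were divided, with 11 highest on day 2 and 11 on day 0. Some of these days lie close together, and Ccna2, Ccnb2 and Mki67, among others, were not called between days 0 and 2. In pWAT cells all 22 mitotic and 13 of 14 replication genes were highest on day 0. In B9 cells 17 of 22 mitotic genes were highest on day 0, while 7 replication genes were highest on day 4 and 6 on day 0. Mcm6 is among those 7, with a mean of 12.378 on day 4, against 12.375 on day 0.

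In B9 cells the changes by day 6 included rises of G1/S and replication genes as well as falls. By day 6 the B9 cells had 32 of 40 genes lower than on day 0, where 38.8% of all tested genes were, and 5 higher, where 40.5% were, with a median of -0.61. The mitotic median was -0.80, the replication median -0.29 and the G1/S median 0.50. Between days 2 and 4 10 genes rose, against 30.6% of all tested genes, and 12 fell, against 28.7%, a split that became 9 and 18 under quantile normalization. As deposited, both counts lie near the shares over all tested genes. Of the 10 that rose 6 were replication genes and 3 G1/S regulators, and of the 12 that fell 11 were mitotic. This breakdown by role was not tested. Ccne1 had 10.82, 10.74 and 10.84 on day 4, against 9.91, 9.91 and 9.96 on day 2 (log2 change 0.87, 1.83-fold higher), and Ccne2 had 11.14, 11.17 and 11.10 on day 4, against 10.29, 10.38 and 10.67 on day 2 (0.69). Both cyclin E genes were at their highest on day 4. Top2a had 12.66, 12.74 and 12.69 on day 4, against 13.41, 13.40 and 13.46 on day 2 (-0.73), and Cenpf fell by 0.72 over the same step. Between days 4 and 6 32 genes fell, against 26.8% of all tested genes, and none rose, against 26.6%, with Ccne1 (-0.81) and the Aurora kinase gene Aurka (-0.74) falling most.

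At day 6 Ccne2 in B9 cells had 10.95, 10.82 and 10.91, against 10.07, 10.06 and 10.18 on day 0 (log2 change 0.79, 1.73-fold higher), and Cdc45 had 10.64, 10.54 and 10.71, against 9.97, 10.12 and 10.07 (0.57). Cdt1 was also higher on day 6 (0.44), as was Pcna (0.26). Ccne1 was higher as well, with a mean of 9.99 on day 6, against 9.42 on day 0. Mki67 had 13.04, 12.76 and 13.14 on day 6, against 13.55, 13.57 and 13.61 on day 0, a 1.51-fold lower level, beside the 7.73-fold and 7.03-fold lower levels of pBAT and pWAT cells. The largest B9 falls were those of Kif23, with 8.74, 8.94 and 8.87 on day 6, against 10.94, 10.88 and 10.91 on day 0 (-2.06, 4.17-fold lower), and of Birc5, survivin, with 9.60, 9.66 and 9.66 against 11.14, 11.11 and 10.96 (-1.43, 2.7-fold lower). Adipocyte genes in these cells summed to 9136 to 9588 CPM on day 6, and 6 genes of brown adipocytes to 106 to 111 CPM.

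Among the other cycle genes by day 6, 21 rose and 118 fell in pBAT cells, 14 rose and 130 fell in pWAT cells and 38 rose and 91 fell in B9 cells, of 152 tested. Of all tested genes 38.3% rose and 39.2% fell in pBAT, 35.3% rose and 35.5% fell in pWAT, and 40.5% rose and 38.8% fell in B9 cells. All 22 kinetochore genes and all 20 kinesin and cytokinesis genes fell in both primary types, with Nuf2 10-fold lower and Ckap2l 11.3-fold lower in pBAT cells. Foxm1 was 2.17-fold lower in B9, 8.96-fold lower in pBAT and 7.93-fold lower in pWAT cells. Going the other way, the retinoblastoma gene Rb1, which restrains E2F, was 4.34-fold, 5.71-fold and 5.09-fold higher in the same cells, and Cdkn2c was 2.84-fold, 7.28-fold and 5.55-fold higher. In pBAT cells the origin recognition genes Orc5 (1.14) and Orc3 (0.76) rose, while Dbf4, the activating subunit of the Cdc7 kinase that fires origins, was 7.17-fold lower.

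The second experiment asked what a block of heme synthesis, with or without added heme, does in differentiating pBAT cells. SA lowered the mitotic genes by small amounts. In SA cells 18 of the 40 genes were called lower than in Vehicle cells, where 21.4% of all tested genes were, and 1 was called higher, where 20% were, with a median change of -0.13 against 0.00 over all tested genes. Of the 18, 14 were mitotic and 4 were the replication genes Mcm4, Mcm5, Gins2 and Rrm1. Quantile normalization ended 6 of the calls among the 40 genes and added 1, and median centring ended 4 and added 1. All 22 mitotic genes had a negative change, between -0.40 and -0.03. The mitotic median of each library, relative to the Vehicle mean, was -0.179 to -0.162 in SA and -0.191 to -0.176 in HASA libraries, against -0.067 to 0.063 in HA and -0.060 to 0.041 in Vehicle libraries. The libraries with SA did not overlap those without it.

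**Figure D4:**
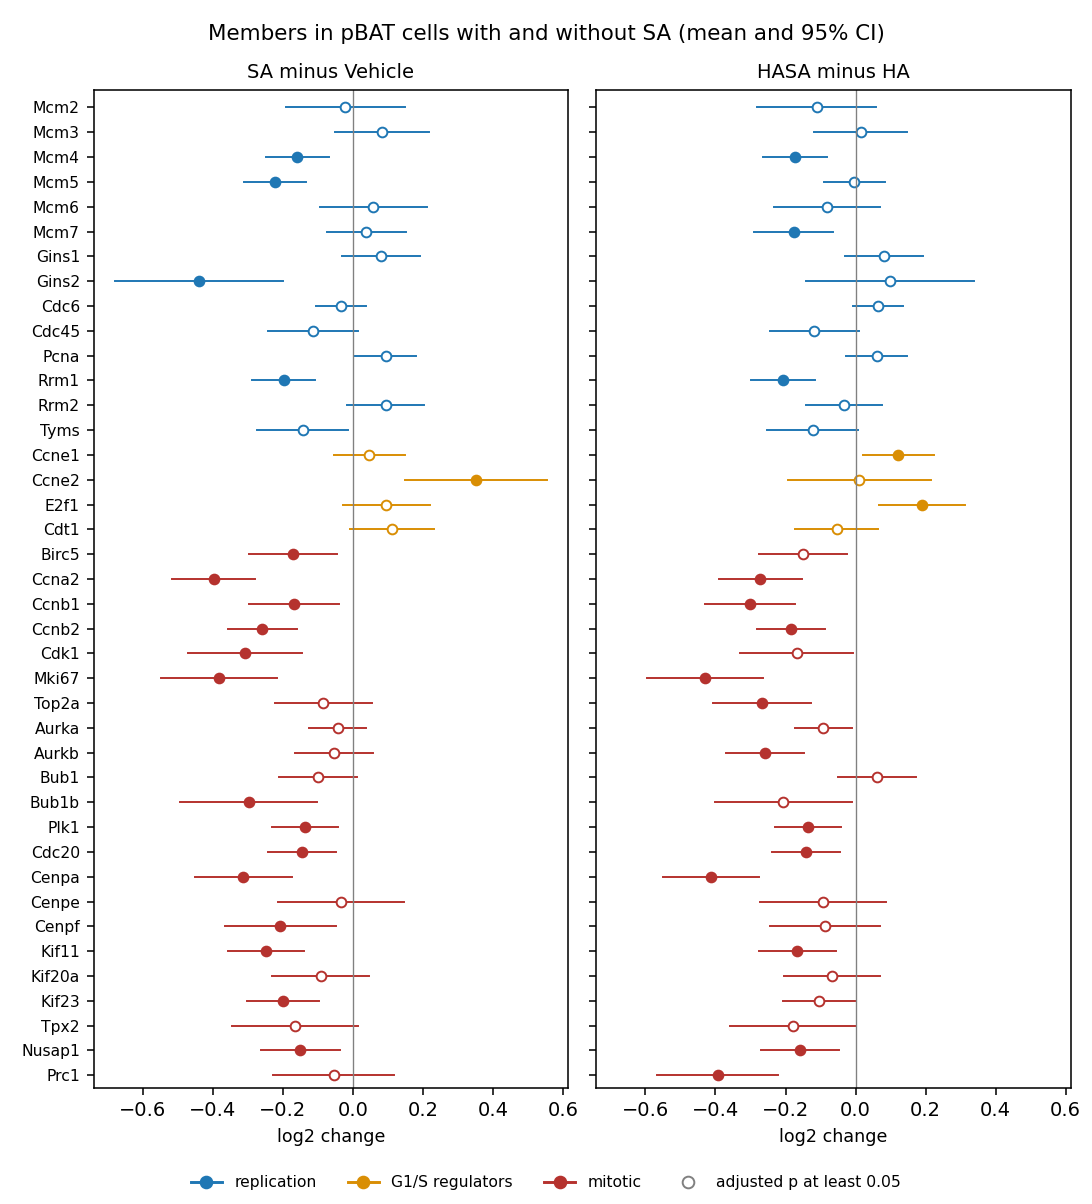
Change (log2) with 95% confidence interval for each of the 40 genes, ordered by role, in pBAT cells, for SA minus Vehicle and for HASA minus HA. Open points did not pass the test. In SA against Vehicle all mitotic genes lie left of 0, with Ccna2 at -0.40, and Ccne2 lies at 0.35.

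Mki67 had 7.99, 7.79, 7.80 and 7.90 in SA cells, against 8.08, 8.26, 8.22 and 8.45 in Vehicle cells, a 1.3-fold lower level (log2 change -0.38, SE 0.079, adjusted p = 0.000794). Ccna2, cyclin A2, had 6.27, 6.04, 6.06 and 6.18 in SA cells, against 6.49, 6.52, 6.51 and 6.62 in Vehicle cells, which was 1.32-fold lower (-0.40, SE 0.057, adjusted p = 2.26e-05). The groups did not overlap for either gene. Cdk1 had 7.33, 7.47, 7.62 and 7.64 in SA cells, against 7.89, 7.81, 7.82 and 7.78 in Vehicle cells (-0.31). Gins2 had 6.95, 6.71, 6.58 and 6.52 in SA cells, against 7.22, 7.22, 7.20 and 6.89 in Vehicle cells (-0.44, 1.36-fold lower), and here SA replicate 1 lay above Vehicle replicate 4. Smaller were the falls of Ccnb1, with 6.71, 6.59, 6.71 and 6.56 in SA cells, against 6.94, 6.74, 6.74 and 6.82 in Vehicle cells (-0.17), and of Plk1, with 5.92, 5.89, 5.85 and 5.83 in SA cells, against 6.00, 5.94, 6.09 and 6.01 in Vehicle cells (-0.14). Neither overlapped, but the call of Ccnb1 was lost without SA replicate 2 or 4 or Vehicle replicate 1 or 4 (-0.17 to -0.13), and that of Plk1 without SA replicate 4 (-0.12) or Vehicle replicate 3 (-0.11). Top2a had 8.16, 8.26, 8.21 and 8.16 in SA cells, against 8.12, 8.24, 8.29 and 8.48 in Vehicle cells, and did not pass the test.

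The one gene that rose with SA was Ccne2, with 7.77, 7.88, 7.87 and 8.07 in SA cells, against 7.61, 7.56, 7.43 and 7.60 in Vehicle cells, a 1.28-fold higher level (log2 change 0.35, SE 0.096, adjusted p = 0.00738). Its groups did not overlap. Ccne1 had 8.38, 8.41, 8.43 and 8.38 in SA cells, against 8.33, 8.33, 8.29 and 8.45 in Vehicle cells. E2f1 had 8.23, 8.19, 8.25 and 8.33 in SA cells, against 8.18, 8.16, 8.23 and 8.06 in Vehicle cells. Cdt1 had 7.01, 7.04, 7.09 and 7.19 in SA cells, against 6.99, 6.86, 7.07 and 6.96 in Vehicle cells. These overlapped and did not pass the test. The same held for replication genes Mcm2 and Cdc6, whose levels were 7.22 to 7.60 and 4.40 to 4.46 in SA cells, against 7.31 to 7.43 and 4.38 to 4.51 in Vehicle cells. Rrm2 had 7.64, 7.62, 7.58 and 7.49 in SA cells, against 7.53, 7.54, 7.44 and 7.45 in Vehicle cells, and Pcna had 9.97, 10.01, 10.04 and 9.99 in SA cells, against 9.89, 9.92, 9.87 and 9.95 in Vehicle cells. Neither passed the test, though Pcna did not overlap.

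Marker levels also differed between SA and Vehicle cells. Preadipocyte and fibroblast genes summed to 4169 to 4862 CPM in SA cells, against 7720 to 8478 CPM in Vehicle cells, and 7 of 7 fell. Macrophage genes summed to 278 to 301 CPM, against 339 to 389 CPM, with 9 of 12 lower and 1 higher. Adipocyte genes summed to 13601 to 14547 CPM, against 11774 to 12854 CPM, with 5 of 7 higher. Brown adipocyte genes summed to 155 to 167 CPM in SA cells, against 276 to 334 CPM in Vehicle cells, with 5 of 6 lower. Smooth muscle and pericyte genes summed to 341 to 367 CPM in SA cells, against 498 to 708 CPM in Vehicle cells, with 5 of 6 tested lower. Their part in the fall of the mitotic genes was not tested. Between HASA and HA cells, where mitotic genes also fell, macrophage genes summed to 448 to 547 CPM, against 437 to 505 CPM, while preadipocyte and fibroblast genes summed to 5830 to 6758 CPM, against 7676 to 9056 CPM. Brown adipocyte genes summed to 127 to 150 CPM in HASA cells, against 329 to 375 CPM in HA cells, with 5 of 6 lower and 1 higher. Smooth muscle and pericyte genes summed to 348 to 380 CPM in HASA cells, against 415 to 466 CPM in HA cells, with 3 of 6 tested lower and 1 higher.

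In HASA cells 15 of the 40 genes were called lower than in HA cells, where 22.4% of all tested genes were, and 2 were called higher, where 20.4% were, with a median of -0.12. The lower ones were 12 mitotic and 3 replication genes. Mki67 had 8.07, 7.93, 7.96 and 7.94 in HASA cells, against 8.20, 8.39, 8.52 and 8.51 in HA cells (log2 change -0.43, 1.35-fold lower, adjusted p = 0.000273). Cenpa, the centromeric histone H3, had 6.88, 6.93, 6.96 and 6.83 in HASA cells, against 7.31, 7.48, 7.23 and 7.23 in HA cells (-0.41). Both fell without overlap. Ccnb1 had 6.64, 6.45, 6.46 and 6.65 in HASA cells, against 6.87, 6.89, 6.88 and 6.77 in HA cells (-0.30). Top2a, not called for SA alone, had at most 8.07 in HASA cells, against 8.17, 8.34, 8.42 and 8.28 in HA cells (-0.27), and neither overlapped. E2f1 (0.19) and Ccne1 (0.12) were the 2 called higher. E2f1 had 8.19, 8.30, 8.42 and 8.41 in HASA cells, against 8.02, 8.18, 8.19 and 8.17 in HA cells, and lost its call without HA replicate 1 (0.15) or HASA replicate 3 (0.16). Ccne1 had 8.46, 8.32, 8.32 and 8.37 in HASA cells, against 8.27, 8.27, 8.16 and 8.29 in HA cells, and lost its call without any 1 of HA replicates 1, 2 and 3 and HASA replicates 1 and 4 (0.09 to 0.13). SA against Vehicle and HASA against HA use separate libraries of 1 table.

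Adding heme to SA moved few of these genes. In HASA against SA cells 2 of the 40 were called higher, where 12.4% of all tested genes were, and 3 lower, where 12.3% were. Mcm5 had 5.64, 5.73, 5.69 and 5.59 in HASA cells, 5.69, 5.65, 5.76 and 5.58 in HA cells, and 5.48, 5.46, 5.42 and 5.50 in SA cells, against 5.68, 5.67, 5.69 and 5.72 in Vehicle cells. Its level in HASA cells was 1.15-fold higher than in SA cells (log2 change 0.20, SE 0.042, adjusted p = 0.00233), with no overlap, and lay within the range of the HA cells. The interaction of SA and HA was called for 7.67% of all tested genes and for 1 of the 40, Mcm5 (0.22, adjusted p = 0.029). That call was lost without HA replicate 2 (0.21) or 4 (0.19), SA replicate 2 (0.22) or 3 (0.20), HASA replicate 2 (0.20) or 3 (0.21), or Vehicle replicate 3 (0.22) or 4 (0.21). Cdt1, at 6.86, 6.70, 6.74 and 6.79 in HASA cells, was lower than the 7.01 to 7.19 of SA cells (-0.31, 1.24-fold), and Ccne2, at 7.85, 7.69, 7.54 and 7.26, was lower than the 7.77 to 8.07 of SA cells (-0.31), where it overlapped. The calls of Bub1 (0.17), Prc1 (-0.25) and Ccne2 depended on single libraries, and 3 of the 5 calls were left without SA replicate 2, 3 without HASA replicate 3 and 2 without HASA replicate 4. The mitotic median of these libraries is given above, and only Bub1 and Prc1 among the 22 mitotic genes were called.

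Between HA and Vehicle cells the counts of called members lay near the shares over all tested genes. In HA cells 2 of the 40 were called higher than in Vehicle cells, where 4.88% of all tested genes were, and none lower, where 4.09% were, with a median of 0.00. Rrm2 had 7.60, 7.65, 7.63 and 7.76 in HA cells, against 7.53, 7.54, 7.44 and 7.45 in Vehicle cells (log2 change 0.17, adjusted p = 0.049). Aurkb had 6.09, 5.97, 5.91 and 5.98 in HA cells, against 5.78, 5.93, 5.66 and 5.81 in Vehicle cells (0.20, adjusted p = 0.0287), where HA replicate 3 lay below Vehicle replicate 2. No gene of the 40 was called without HA replicate 2, HA replicate 4 or Vehicle replicate 1, 1 was called without HA replicate 1 or Vehicle replicate 3, and 4 were called without Vehicle replicate 2.

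Of 147 other cycle genes tested in this experiment 16 rose and 25 fell with SA, where 20% of all tested genes rose and 21.4% fell, and 14 rose and 31 fell in HASA against HA cells, where 20.4% rose and 22.4% fell. These counts were set beside the shares over all genes without a test. The CDK inhibitor p21 (Cdkn1a) was 1.45-fold higher in SA than in Vehicle cells and 1.33-fold higher in HASA than in HA cells. Cdkn1c was 2.03-fold and 2.31-fold lower in the same comparisons. Cdk2, the partner of cyclin E, was 1.34-fold and 1.2-fold higher. The mitotic E2 enzyme Ube2c (-0.31 and -0.27) and geminin (Gmnn), the inhibitor of Cdt1 (-0.27 and -0.42), fell in both. Among 21 kinetochore genes 3 fell and none rose with SA, and among 20 kinesin and cytokinesis genes 6 fell and none rose, where 21.4% of all tested genes fell.

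In brown fat of BAKO mice the deleted gene Alas1, the first enzyme of heme synthesis, had 10.15, 10.18, 10.45 and 10.61, against 12.79, 12.90, 12.73 and 12.97 in WT mice, a 5.66-fold lower level (log2 change -2.50, SE 0.113, adjusted p = 1.34e-05). Of the 40 genes 39 were tested, since Bub1 was below the minimum level, and none was called in limma. Over all tested genes 0.0519% were called higher and 0.0593% lower. At an unadjusted p under 0.05 there were 2 members, Cdt1 and Tyms, both higher. The median change was 0.10, against 0.00 over all tested genes, 32 of 39 changes were positive, and the range was -0.17 to 0.39. The share of positive changes over all tested genes is not given here. Relative to the WT mean, the mitotic medians of single libraries were -0.105 to 0.216 in BAKO and -0.118 to 0.136 in WT mice. The replication medians were -0.032 to 0.191 and -0.120 to 0.075, so the groups overlapped in both roles.

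Cdt1 had 6.02, 5.98, 6.15 and 6.28 in BAKO mice, against 5.90, 5.84, 5.84 and 5.86 in WT mice (log2 change 0.25, SE 0.089, adjusted p = 0.458), and was the only member whose groups did not overlap. Tyms had 7.28, 7.23, 7.13 and 7.48 in BAKO mice, against 6.71, 6.81, 7.07 and 7.21 in WT mice (0.33, adjusted p = 0.5). Mcm6 had 7.23, 7.47, 7.97 and 7.76 in BAKO mice, against 6.93, 7.08, 7.43 and 7.42 in WT mice, the largest difference (0.39, adjusted p = 0.573). Mki67 had 6.71, 5.95, 6.25 and 7.18 in BAKO mice, against 5.74, 6.06, 6.68 and 6.20 in WT mice. Its difference was 0.35 with a 95% interval of -0.25 to 0.95, so a rise or a small fall both lie within it. Top2a had 6.30, 5.71, 6.32 and 6.89 in BAKO mice, against 5.79, 5.61, 6.74 and 6.23 in WT mice. Ccnb1 had 5.12, 5.24, 5.23 and 5.32 in BAKO mice, against 4.97, 5.28, 5.17 and 4.97 in WT mice. BAKO replicate 5 was the highest of its group in all of Mki67, Top2a and Ccnb1. The groups also overlapped for other members: Pcna had 10.20 to 10.40 in BAKO mice, against 10.10 to 10.33 in WT mice, and Rrm2 had 6.20 to 6.52, against 5.95 to 6.26. Cdk1 had 4.88 to 5.54 in BAKO mice, against 4.70 to 5.23 in WT mice, and Plk1 had 5.30 to 5.70, against 5.41 to 5.66. E2f1 had 5.16 to 5.88, against 5.14 to 5.43, and Ccne1 had 6.31 to 6.52, against 6.17 to 6.43. Ccne2 had 6.31 to 6.58, against 6.14 to 6.61, Cdc6 had 6.00 to 6.63, against 6.00 to 6.72, and Mcm2 had 6.34 to 6.82, against 6.36 to 6.66.

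**Figure D5:**
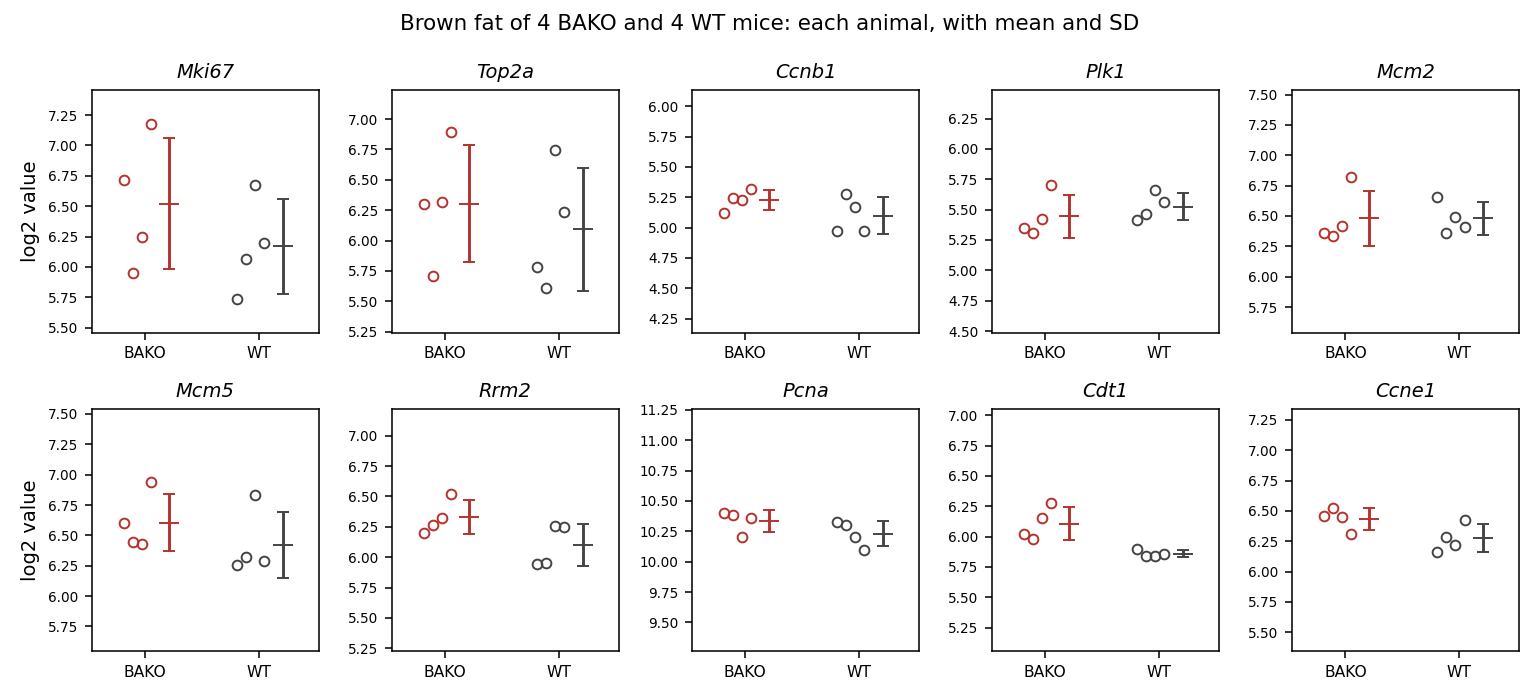
Level (log2) of members in each brown fat library of 4 BAKO and 4 WT mice, with 1 point per animal, a horizontal line at the group mean and bars of 1 SD. The groups overlap for Mki67, at 5.95 to 7.18 in BAKO and 5.74 to 6.68 in WT mice.

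Of 133 other cycle genes tested in brown fat none was called in limma. Whole brown fat holds other cell types besides brown adipocytes. Macrophage genes summed to 185 to 420 CPM in BAKO mice, against 153 to 297 CPM in WT mice, and skeletal muscle genes to 10.9 to 3416 CPM, against 11.8 to 168 CPM. None of the 12 macrophage or 8 skeletal muscle genes was called, and their part in the member levels was not tested. The brown adipocyte genes summed to 4463 to 6538 CPM in BAKO mice and 5445 to 6025 CPM in WT mice.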

How the data were processed

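RNA-seq of 60 mouse libraries was used in 5 tables whose values were deposited by the authors on a log2 scale, and no counts were used. Per the submitters' processing notes, kallisto and DESeq2 were used with the build GRCm39, with versions and the exact transformation not given in the sources used here. The base 2 rests on the sums of 2 raised to the values, 18.0 to 29.9 M per library, and read depth is unknown. Low genes are compressed on it, which makes their fold changes too small. Gene symbols came from GENCODE M21, which matched 99.6 to 99.8% of identifiers, and promoters from RefSeq on GRCm38.p6 (32 of 40 genes).

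Genes whose highest group mean was at least 4 were tested (12462 to 13497 per table) with limma 3.58.1 in R 4.3.3: 1 mean per group, a variance trend, moderated tests, Benjamini-Hochberg adjustment over the tested genes and a threshold of 0.05. Intervals are 95%. A gene was named if it is 1 of the 40 members, and values per library are given for 14 fixed genes and for the largest rises and falls among those called. Of the other cycle genes up to 3 per list with the smallest adjusted p could be named. The fit was tested on simulated data. Library numbers were not treated as pairs. For same-numbered libraries correlations of deviations over 0.1 were 0 of 14 in B9, 0 of 13 in pBAT and 2 of 13 in pWAT. In the treated cells they were 7 of 24, and in brown fat, where each library is its own animal, 2 of 3. For unlike numbers they were 1 of 40 in B9, 0 of 41 in pBAT and 2 of 41 in pWAT. In the treated cells they were 14 of 72, and in brown fat 4 of 13. These counts do not settle whether the numbers mark pairs. The members and lists were chosen with earlier results of these data known. Alternatives were filters on low values, the variance trend, centring, quantile normalization, a replicate block, fits on the compared groups alone and leaving out each library.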

Additional observations from a re-analysis of the deposited data

Results flagged for a closer look

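Single libraries stood apart from the other 3 of their group in 8 of 84 groups checked over 14 genes, where chance gives about 1 in 20. In the treated pBAT cells these were Ccnb1 in HA replicate 4 (6.77, others 6.87 to 6.89), Plk1 in HASA replicate 4 (5.80, others 5.95 to 5.97), Cdc6 in Vehicle replicate 3 (4.38, others 4.50 to 4.51), Pcna in HASA replicate 1 (9.92, others 10.03 to 10.04), Ccne1 in HA replicate 3 (8.16, others 8.27 to 8.29) and E2f1 in HA replicate 1 (8.02, others 8.17 to 8.19). In brown fat they were Mcm2 in BAKO replicate 5 (6.82, others 6.34 to 6.41) and Mcm5 in WT replicate 4 (6.83, others 6.26 to 6.32).

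The change of Mcm5 with SA differed with and without HA (interaction 0.22 on the log2 scale, adjusted p = 0.029 in limma). This call was lost under quantile normalization and without any 1 of several libraries, as listed above. Of all tested genes 7.67% were called for the interaction.

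On day 2 against day 0 every library moved in opposite directions in 2 cell types for 8 of the 14 genes given per library, a difference that was not tested because the cell types were normalized apart. The share of all tested genes that did so is not given here. Of all tested genes 35.1% were called higher and 34% lower in B9, 36.7% and 29.7% in pBAT, and 27.1% and 25.5% in pWAT cells. Top2a changed by 0.53 in B9 and 0.53 in pBAT cells, and by -0.62 in pWAT cells. Ccnb1 changed by -0.33 in B9, 0.48 in pBAT and -0.86 in pWAT cells. Cdk1 changed by -0.25, 0.28 and -0.64 in B9, pBAT and pWAT cells. In the same order of cell types, Mcm2 changed by -0.18, 0.52 and -0.15, Mcm5 by -0.27, 0.66 and -0.46, Cdc6 by -0.31, 0.72 and -0.48, Rrm2 by -0.22, 0.90 and -0.32, and E2f1 by -0.30, 0.20 and -0.13. For E2f1 only the B9 change passed the test, and for Mcm2 the pWAT change did not.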

How the results depend on the processing

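Counts of called members stayed within 1.5 times of the reported ones in 15 of 18 comparisons under every alternative run. The exceptions were HA against Vehicle, HASA against SA and the interaction. For HA against Vehicle the count was 2, and it was 1 with no filter on low values, 1 with a highest group mean of at least 6, 1 with a replicate block, 0 with the groups compared alone and 0 to 4 with a library left out. For HASA against SA it was 5, and 2 to 5 with a library left out. For the interaction it was 1, and 0 under quantile normalization and 0 to 3 with a library left out. Library numbers were not treated as pairs. Under the replicate block the count was 22 in place of 26 for pBAT and 33 in place of 35 for B9 cells on day 2.

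Quantile normalization reversed 3 values, those of Mcm6 (0.13, as deposited -0.04) and Kif20a (0.020, as deposited -0.16) in B9 cells on day 2 and of Mcm7 (0.14, as deposited -0.01) in B9 cells on day 6 against day 0. It moved the median of all genes from 0.03 to -0.09 in B9 cells and from 0.00 to -0.12 in pWAT cells on day 6 against day 0, and split the HASA against SA calls into 1 higher and 4 lower in place of 2 and 3. The cause was not tested. Since no counts were used, the depth behind low genes such as Cdc6 in treated cells is unknown.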
